A study of Danio rerio with 17 samples.

Results

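Oxidative phosphorylation genes were followed in the midbrains of adult zebrafish from 2 populations on 3 selenium diets. The set holds every gene whose symbol starts with nduf, uqcr, sdh or atp5, or with cox followed by a digit of 4 to 8. It comprised 73 of the 15648 genes measured, under 72 symbols, because COX5B has 2 rows. Of these, 63 are structural subunits: 32 of complex I, 3 of complex II, 5 of complex III, 11 of complex IV and 12 of complex V. Another 8 are assembly factors of complex I (5) or complex II (3), and 2 are ATP synthase inhibitors. A further 35 zebrafish gene identifiers that fit the rule, SDHB and UQCRFS1 among them, were not analysed here.

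The fish were sexually mature males, 1 year old, fed for 10 weeks on food with selenium given as selenomethionine. Transgenic Mosaic 1 fish and Pargana fish each received a deficient diet (0.46 ppm selenium), a control diet (1.7 ppm) or a supplemented diet (3.1 ppm). Each array measured 1 midbrain. The Pargana control group had 2 fish and the other 5 groups had 3, which gives 9 arrays of Transgenic Mosaic 1 and 8 of Pargana. What transgene the mosaic fish carry, and in which cells, is not given in the sources used here. The deposited values are log2 RMA expression values, so a difference of 1 is a factor of 2 in signal, and depth has no meaning for them: the number of arrays limits the precision.

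Oxidative phosphorylation passes electrons from NADH through complex I, or from succinate through complex II, to ubiquinone, then through complex III, cytochrome c and complex IV to oxygen. Protons pumped on the way drive ATP synthase, complex V. Neurons depend on this pathway for most of their ATP. Several subunits exist as tissue isoforms. In mammals COX7A1 is the heart and skeletal muscle form of a small complex IV subunit and COX7A2 the form found widely, while COX7A2L helps complexes III and IV associate. Selenium itself is used in selenoproteins, which include antioxidant enzymes; none of the genes described here encodes one.

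Most of the set was bright on these arrays. The mean log2 value over the 17 arrays was between 6.45 for ATP5PB and 14.74 for atp5if1a, with a median of 12.93, and 66 of the 73 genes lay above the median gene of the table (9.66). By complex, the median of these means was 12.73 for complex I, 10.62 for complex II, 12.93 for complex III, 13.10 for complex IV and 13.84 for complex V. Assembly factors were dimmer, with medians of 11.01 for those of complex I and 10.39 for those of complex II. Signals depend on each gene's probes, so these levels place a gene on the array's scale and do not rank transcript abundance between genes. Arrays had medians between 9.62 and 9.73. The midbrain genes OTX2 (11.84 to 12.44) and PAX7 (13.06 to 13.52) and the neuronal gene SNAP25 (14.46 to 14.81) were high in every fish, and the hindbrain genes hoxb1a, hoxb1b and hoxa2b stayed between 4.45 and 5.82. EMX2, also known from the forebrain, lay between 11.54 and 12.20. The level of the 4 forebrain markers found, the mean deviation from each gene's mean, was between -0.50 and -0.05 in Pargana fish. In Transgenic Mosaic 1 fish it was between -0.58 and 1.29. Of the 5 midbrain markers found only otx2a passed between the populations, against 13.3% of all genes. It was higher in Transgenic Mosaic 1 (0.47, adjusted p = 0.025 in limma). What these differences contribute was not tested. None of the 10 neuronal markers found differed between the populations at an adjusted p under 0.05, against 13.3% of all genes (limma). At an unadjusted p under 0.05 there was 1, against 29% of all genes.

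The populations were compared first, as the difference Transgenic Mosaic 1 minus Pargana averaged over the diets. For most of the electron transport and ATP synthase genes this average was held within 0.5 log2 units of 0. cox7a1 was lower in Transgenic Mosaic 1, the complex I subunit NDUFS1 was slightly lower and the complex I subunit ndufa11 slightly higher. These 3 of 73 genes (4.11%) passed an adjusted p under 0.05 in limma, against 13.3% of all genes. At an unadjusted p under 0.05 the count was 11 of 73 (15.1%), against 29% of all genes. The median difference of the 73 genes was 0.00, against -0.01 for all genes, with 38 higher and 35 lower. For 66 genes the whole 95% interval of the difference lay within 0.5 log2 units of 0, with a median of 0.20 from its centre to its end. The 7 others were cox7a1, NDUFS1, ndufa11, ATP5PB, atp5if1b, ndufab1b and the COX5B row ENSDARG00000068738. The called differences of NDUFS1 (-0.36) and ndufa11 (0.41) are smaller than 0.5, so the margin leaves room for differences of that size. It concerns the average over the diets: SDHD is among the 66, although it came first on the control diet, as given below. No gene of the set had arrays of the 2 populations that did not overlap, against 1.94% of all genes. The difference had the same sign on all 3 diets in 31 genes, 19 higher and 12 lower. This was not counted over all genes, so the 31 are a description and no measure of agreement between diets.

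**Figure D1:**
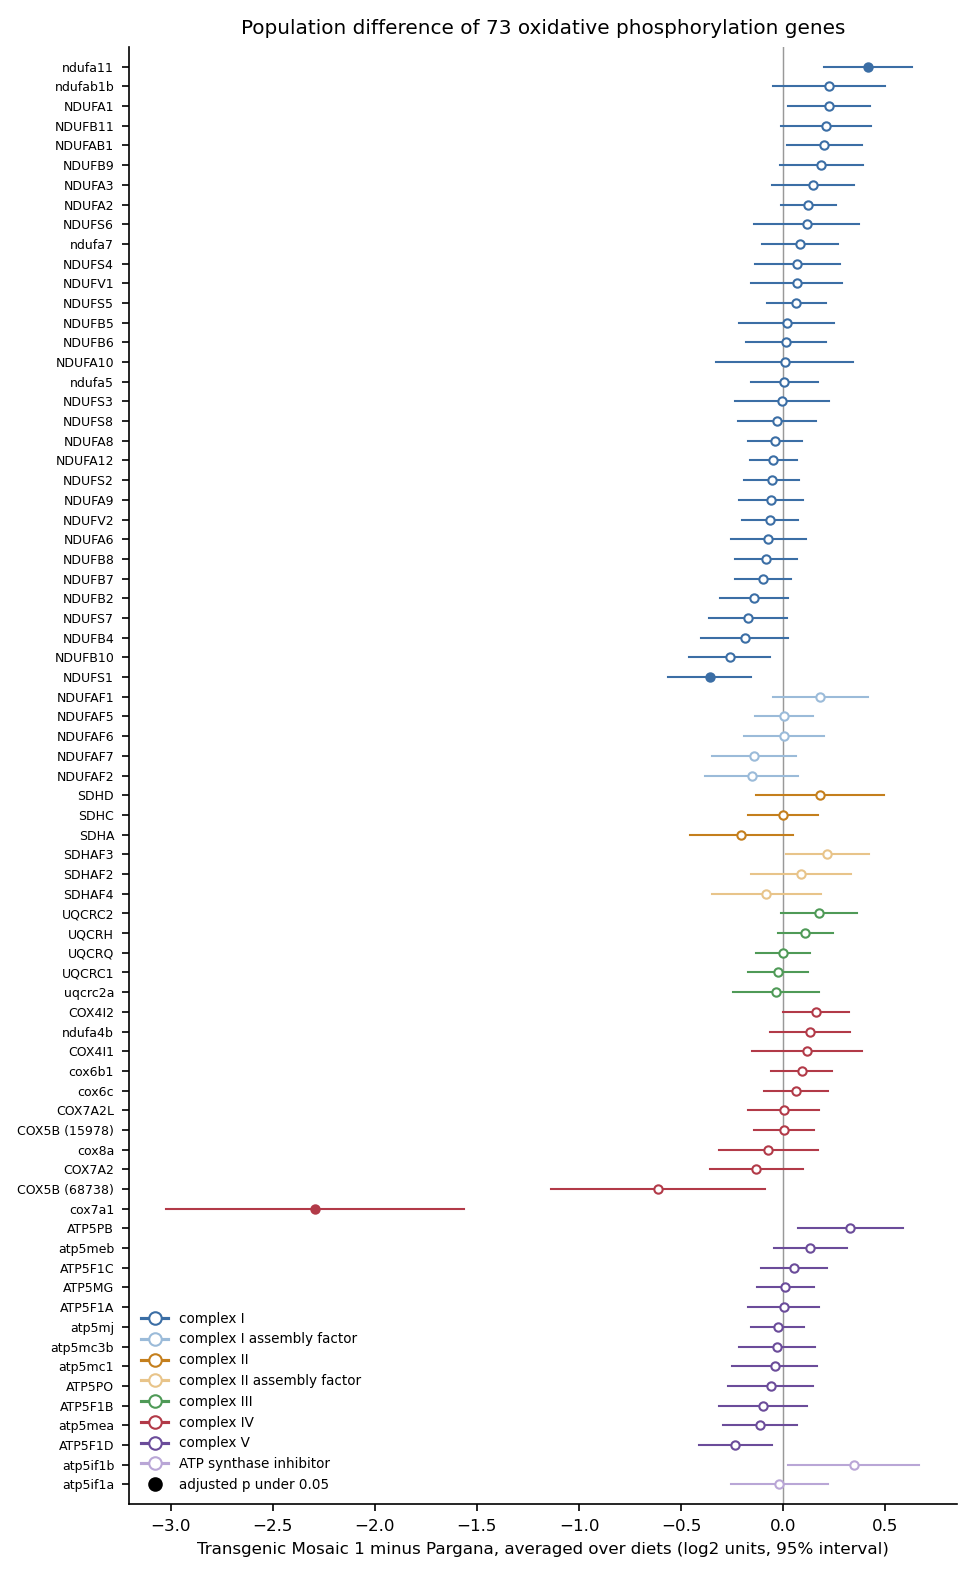
Difference between Transgenic Mosaic 1 (9 arrays) and Pargana (8 arrays), averaged over the diets, for each of the 73 genes, in log2 units with 95% intervals. Genes are grouped and coloured by complex or role and sorted by difference; filled points have an adjusted p under 0.05. Nearly all intervals lie within 0.5 of 0, and cox7a1 stands at -2.29.

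cox7a1 (ENSDARG00000069464) had the widest contrast in the set. On the deficient diet it read 9.15, 8.47 and 8.77 in Transgenic Mosaic 1 fish, against 11.99, 11.43 and 12.04 in Pargana fish. On the control diet it read 8.48, 9.66 and 7.57 in Transgenic Mosaic 1 fish, against 9.34 and 9.72 in Pargana fish. On the supplemented diet it read 8.45, 8.46 and 8.57 in Transgenic Mosaic 1 fish, against 12.04, 9.82 and 12.31 in Pargana fish. Only 1 pair of fish crossed between the populations: a Transgenic Mosaic 1 control fish at 9.66 lay above a Pargana control fish at 9.34. The mean was 8.62 ± 0.57 in Transgenic Mosaic 1 (SD, n = 9) and 11.09 ± 1.24 in Pargana (SD, n = 8). Averaged over the diets the difference was -2.29 (SE 0.34, adjusted p = 0.00078 in limma).

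The other genes of the same subunit family gave no call. COX7A2 had a lowest, median and highest value of 13.54, 13.84 and 14.21 in Transgenic Mosaic 1, against 13.77, 13.93 and 14.11 in Pargana. Its difference was -0.13 (95% interval -0.36 to 0.10, adjusted p = 0.46). COX7A2L differed by 0.00 (-0.17 to 0.18). Both intervals exclude a shift of the size seen in cox7a1.

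Muscle genes differed between the same arrays. Of 24 fast muscle markers found, 8 passed the test, against 13.3% of all genes, and all 8 were lower in Transgenic Mosaic 1. Among them were TNNT3 (-1.58) and TNNC2 (-1.28), troponin subunits of fast fibres, and atp2a1l (-2.31), a calcium pump of the sarcoplasmic reticulum. The median difference of the list was -0.41. Its summed level, given as the mean deviation from each gene's mean, was between -0.62 and -0.13 in Transgenic Mosaic 1 fish, against -0.20 and 1.42 in Pargana fish. The myosin heavy chain gene myhz2 was near the bottom of the scale everywhere (4.14 to 4.73), and so was the atrial light chain MYL7 (4.03 to 4.84). Of 11 slow and cardiac markers, myh6 (-3.09) and MYBPC3 (-0.43) passed as lower and nppa (1.04) as higher, against the same 13.3% of all genes. Both lists are small, and no test compared their shares with that of all genes. In whole tissue, fewer cells of a type and less RNA per cell cannot be told apart. The order of the fish differed in places: Pargana deficient fish 1 had a muscle level of -0.01 and a cox7a1 value of 11.99, while Pargana supplemented fish 2 had a muscle level of 0.37 and a cox7a1 value of 9.82. With the muscle level as a covariate the cox7a1 difference was -1.54 (adjusted p = 0.17). The populations overlapped in muscle level only between -0.20 and -0.13. For every gene, this covariate fit therefore cannot separate population from muscle level well. Without the 3 Pargana arrays of highest muscle level the cox7a1 difference was -1.84, with supplemented fish 2 alone left in its group. Of these arrays, supplemented fish 1 (1.94) and deficient fish 2 (1.14) also had a high photoreceptor and pineal marker level, formed in the same way. Supplemented fish 3 did not (-0.24), and Transgenic Mosaic 1 deficient fish 2 was at 1.87. What these levels contribute was not tested.

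**Figure D2:**
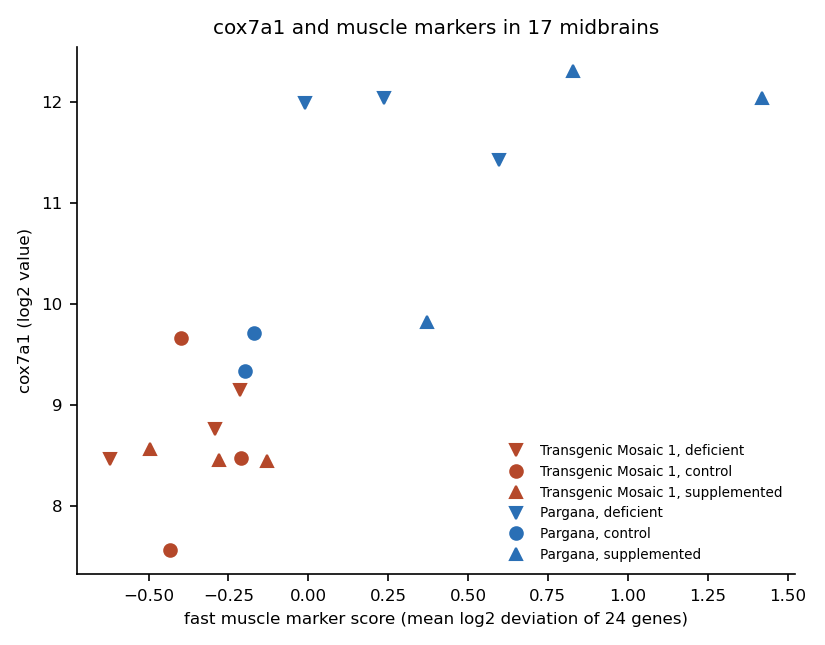
cox7a1 (log2 value, vertical axis) against the fast muscle marker level (mean log2 deviation of 24 genes, horizontal axis) in the 17 midbrains. The 9 Transgenic Mosaic 1 fish sit between -0.62 and -0.13 on the horizontal axis with cox7a1 at or below 9.66; Pargana fish reach 1.42 with cox7a1 up to 12.31.

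Complex I, the NADH dehydrogenase, held the other called genes. ndufa11 (an accessory subunit of the membrane arm) read 12.20, 11.98 and 12.16 on the deficient diet in Transgenic Mosaic 1 fish, against 11.93, 11.24 and 11.79 in Pargana fish. On the control diet it read 12.28, 12.01 and 12.10 in Transgenic Mosaic 1 fish, against 11.63 and 11.67 in Pargana fish. On the supplemented diet it read 11.96, 11.91 and 12.31 in Transgenic Mosaic 1 fish, against 11.63, 11.85 and 11.78 in Pargana fish. On each diet every Transgenic Mosaic 1 fish lay above every Pargana fish, and across diets the populations overlapped only between 11.91 and 11.93. The difference was 0.41 (SE 0.10, adjusted p = 0.015). It was 0.18 with the muscle level as a covariate (adjusted p = 0.61) and 0.31 without the 3 Pargana arrays of highest muscle level (adjusted p = 0.070).

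NDUFS1, an iron-sulfur subunit on the electron path of complex I, went the other way. On the deficient diet it read 12.26, 12.90 and 12.32 in Transgenic Mosaic 1 fish, against 12.84, 12.72 and 12.94 in Pargana fish. On the control diet it read 12.96, 12.66 and 12.73 in Transgenic Mosaic 1 fish, against 12.78 and 13.04 in Pargana fish. On the supplemented diet it read 12.17, 12.19 and 12.02 in Transgenic Mosaic 1 fish, against 12.67, 12.71 and 12.82 in Pargana fish. The groups were apart on the supplemented diet and overlapped on the others. Averaged over the diets the difference was -0.36 (SE 0.09, adjusted p = 0.023). The call was lost without Pargana control fish 2 (-0.32, adjusted p = 0.073), with the muscle level as a covariate (-0.47, adjusted p = 0.17) and without the 3 Pargana arrays of highest muscle level (-0.37, adjusted p = 0.091).

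The remaining 30 complex I subunits gave no call. NDUFB10, a membrane-arm accessory subunit, came nearest, at -0.26 (SE 0.09, adjusted p = 0.074), with a lowest, median and highest value of 12.61, 12.90 and 13.09 in Transgenic Mosaic 1, against 12.62, 13.14 and 13.49 in Pargana. NDUFA1 (0.23) and the acyl carrier protein NDUFAB1 (0.20) had adjusted p values of 0.13. Besides the called NDUFS1, the core subunits NDUFV1, NDUFS8 and NDUFS7, which carry the flavin or iron-sulfur clusters, differed by 0.07, -0.03 and -0.17. The accessory subunits NDUFB9 (0.19), NDUFA3 (0.15), NDUFB2 (-0.14), NDUFB7 (-0.10) and NDUFB8 (-0.08) had intervals that include 0. Over all 32 subunits 17 were higher and 15 lower, with a median of 0.01. None of the 5 complex I assembly factors had an unadjusted p under 0.05 (limma), and their differences lay between -0.15 for NDUFAF2 and 0.18 for NDUFAF1.

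Complex II, succinate dehydrogenase, also belongs to the citric acid cycle. Its flavoprotein SDHA differed by -0.21 (95% interval -0.46 to 0.05), and the membrane anchors SDHC and SDHD by 0.00 (-0.17 to 0.17) and 0.18 (-0.14 to 0.49). SDHAF3, which helps assemble the iron-sulfur subunit, was at 0.22 (adjusted p = 0.15), and at 0.01 with the muscle level as a covariate. With that covariate SDHD was at 0.57 (adjusted p = 0.22). In complex III the core subunits UQCRC1 (-0.03) and uqcrc2a (-0.03) were close to 0, and UQCRC2, another row of the same core subunit, was at 0.18 (adjusted p = 0.20). All 5 complex III genes had intervals within 0.5 of 0. None of these groups held a call.

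In complex IV, cytochrome c oxidase, the 10 genes other than cox7a1 gave no call. COX4I1, the common form of subunit IV, differed by 0.12 and COX4I2, known in mammals as the lung form and as oxygen dependent, by 0.16 (adjusted p = 0.18). The 2 COX5B rows differed from each other: ENSDARG00000015978 was at 0.00 (95% interval -0.15 to 0.15), and ENSDARG00000068738 at -0.61 (-1.14 to -0.09, adjusted p = 0.11). The second row spanned 10.51, 10.97 and 12.19 (lowest, median, highest) in Transgenic Mosaic 1, against 10.79, 11.69 and 12.63 in Pargana, so the groups overlapped over most of their range. With the muscle level as a covariate this row was at -1.04 (adjusted p = 0.22). cox6b1 (0.09) and cox8a (-0.07) were near 0.

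ATP synthase had no call among 12 subunits. The subunits of the catalytic head, ATP5F1A (0.00) and ATP5F1B (-0.10), had intervals within 0.5 of 0. ATP5F1D, the delta subunit of the central stalk, differed by -0.23 (SE 0.08, adjusted p = 0.077), with a lowest, median and highest value of 12.59, 12.73 and 12.97 in Transgenic Mosaic 1, against 12.82, 12.94 and 13.35 in Pargana. ATP5PB, of the peripheral stalk, differed by 0.33 (SE 0.12, adjusted p = 0.086) and is the dimmest gene of the set, between 6.24 and 6.94 in Transgenic Mosaic 1 and between 5.83 and 6.67 in Pargana. With the muscle level as a covariate its difference was 0.01 (adjusted p = 0.99). The inhibitors, which block ATP hydrolysis by the enzyme, were at 0.35 for atp5if1b (adjusted p = 0.14) and -0.02 for atp5if1a. atp5mea (-0.11) and atp5meb (0.13), both rows of the small membrane subunit e, had opposite signs and intervals that include 0.

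**Figure D3:**
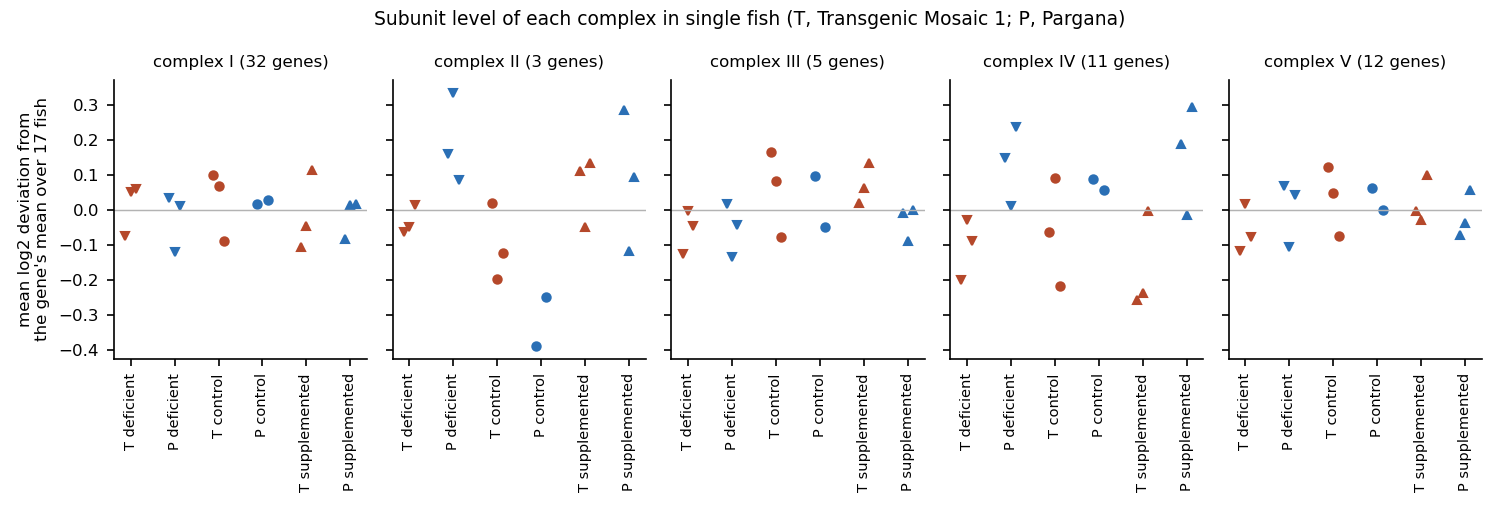
Mean log2 deviation of the subunits of each complex from each gene's mean over the 17 fish, by fish and group. The populations overlap in every panel; the complex IV panel includes cox7a1 and the complex II panel includes SDHD, which is low in the 2 Pargana control fish.

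Averaged over all 63 structural subunits, fish lay between -0.11 and 0.09 in Transgenic Mosaic 1, against -0.07 and 0.08 in Pargana. The complex I level was between -0.10 and 0.11 in Transgenic Mosaic 1, against -0.12 and 0.03 in Pargana. The complex IV level was between -0.26 and 0.09 in Transgenic Mosaic 1, against -0.01 and 0.29 in Pargana. With cox7a1 left out, the 10 other complex IV genes gave -0.16 to 0.12 in Transgenic Mosaic 1, against -0.15 to 0.14 in Pargana, so the offset in that panel was carried by 1 gene.

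Within single diets fewer genes passed. On the deficient diet only cox7a1 did (-3.02, SE 0.56, adjusted p = 0.019), 1 of 73 genes against 1.44% of all genes. With the muscle level as a covariate it was -2.29 (adjusted p = 0.20). That call was also lost when Pargana deficient fish 1 (adjusted p = 0.058), Pargana deficient fish 3 (0.074) or Transgenic Mosaic 1 deficient fish 3 (0.077) was left out. On the control diet none of the 73 passed in limma, against 0.952% of all genes, and 4 had an unadjusted p under 0.05, against 12.4% of all genes. SDHD (1.1, adjusted p = 0.082) came first there, and cox7a1 was at -0.96 (adjusted p = 0.59). On the supplemented diet cox7a1 (-2.90, SE 0.56, adjusted p = 0.014) and NDUFS1 (-0.61, SE 0.16, adjusted p = 0.047) passed, 2 of 73 against 3.87% of all genes. cox7a1 lost that call without Pargana supplemented fish 3 (-2.44, adjusted p = 0.056) and with only these 2 groups fitted (adjusted p = 0.063). It was -1.57 with the muscle level as a covariate (adjusted p = 0.53) and -1.33 without the 3 Pargana arrays of highest muscle level (adjusted p = 0.35), of which 2 are in this group. NDUFS1 lost it in 16 of 27 alternative settings, with differences between -0.80 and -0.56.

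**Figure D4:**
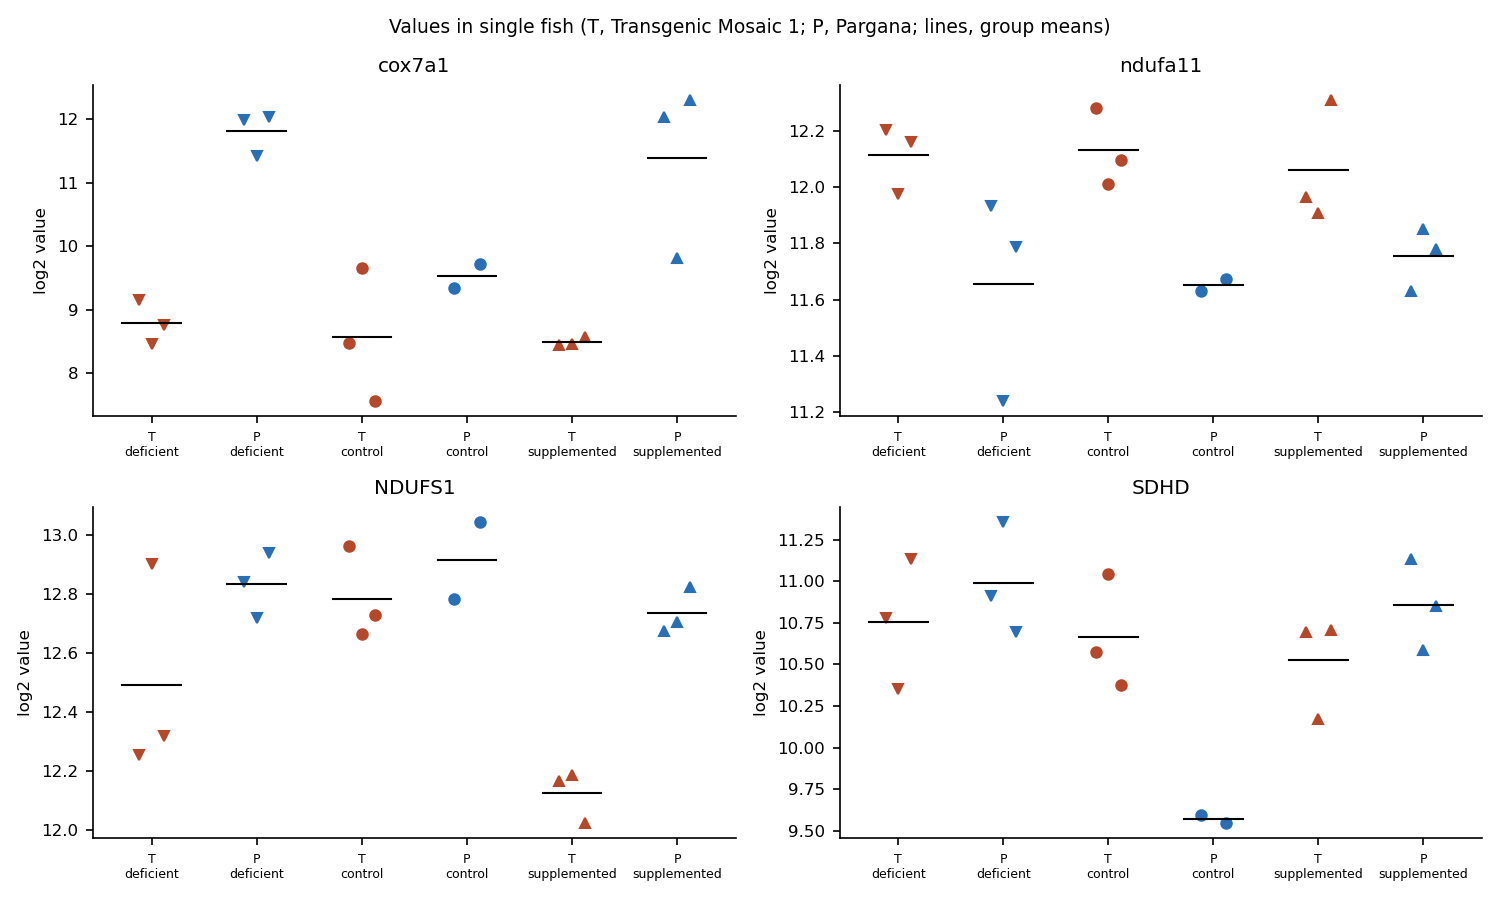
Log2 values of cox7a1, ndufa11, NDUFS1 and SDHD in each fish, by diet and population, with group means as lines. On each diet Transgenic Mosaic 1 stands left of Pargana. cox7a1 is high in Pargana fish on the deficient diet and in 2 of 3 on the supplemented diet, and SDHD is low in both Pargana control fish.

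The second question was whether the selenium diet moved these genes. No gene of the set passed an adjusted p under 0.05 in limma in any of the 6 diet comparisons within a population or in the 3 averaged over both. Few genes of any kind did. In Transgenic Mosaic 1 the share of all genes called was 0.0256% for deficient against control, 0.0831% for supplemented against control and 0.00639% for supplemented against deficient. In Pargana these shares were 0.0383%, 0.032% and 0%. Averaged over the populations they were 0.032%, 0.0447% and 0%. At an unadjusted p under 0.05, in the same order of comparisons, the set had 2, 3 and 2 genes in Transgenic Mosaic 1, against 4.67%, 5.76% and 3.34% of all genes. It had 6, 3 and 0 in Pargana, against 7.05%, 6.01% and 6.51% of all genes, and 9, 3 and 1 averaged over both, against 6.94%, 5.38% and 4.3%. Of 73 genes the 9 are 12.3%.

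Most genes were held within 0.5 log2 units of 0 by the averaged comparisons. For deficient against control, 64 of 73 genes had a 95% interval within 0.5 of 0, for supplemented against control 65, and for supplemented against deficient 68. Medians of the set were -0.03, -0.02 and 0.00 in that order, against -0.03, -0.02 and 0.01 for all genes. The counts of bounded genes hold for the averages only, and intervals within 1 population were wider. For Pargana deficient against control they reached 0.54 for NDUFS3 and 0.61 for ATP5F1B. In Transgenic Mosaic 1 on the deficient diet 11 of 12 complex V subunits and all 5 complex III subunits were lower than on the control diet, with medians of -0.08 and -0.03, and all genes had a median of -0.03. None of them passed the test. Subunits of a complex share the same arrays, so these counts are a description. The fish overlapped: the complex V level was -0.12, 0.02 and -0.08 on the deficient diet, against 0.12, 0.05 and -0.08 on the control diet. The complex III level was -0.13, 0.00 and -0.05, against 0.17, 0.08 and -0.08.

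**Figure D5:**
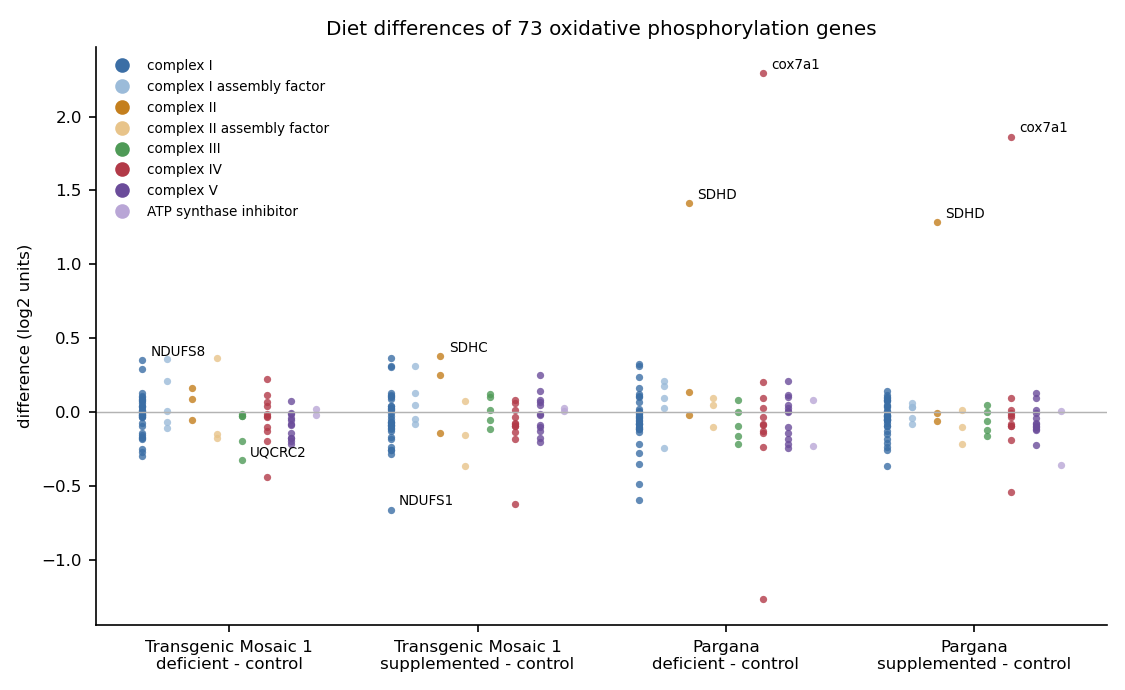
Difference from the control diet (log2 units) of each of the 73 genes, by complex or role, for the deficient and supplemented diets in each population. Most points lie within 0.5 of 0, and cox7a1, SDHD and, on the deficient diet, a COX5B row (-1.26) stand out in Pargana, where 2 control fish are shared by both comparisons; no point passed an adjusted p under 0.05.

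SDHD, a membrane anchor of succinate dehydrogenase (complex II), had the smallest p among diet comparisons. In Pargana fish it read 10.91, 11.36 and 10.70 on the deficient diet, 9.60 and 9.54 on the control diet, and 11.13, 10.59 and 10.85 on the supplemented diet. Both control fish lay about 1 log2 unit under the other 6. In Transgenic Mosaic 1 fish it read 10.78, 10.35 and 11.13 on the deficient diet, 10.58, 11.05 and 10.38 on the control diet, and 10.70, 10.17 and 10.71 on the supplemented diet, where all groups overlapped. In Pargana the difference from control was 1.42 (SE 0.27, adjusted p = 0.13) on the deficient diet and 1.28 (SE 0.27, adjusted p = 0.17) on the supplemented diet. These comparisons share the 2 control arrays. Pargana control fish 1 had a level of the 7 macrophage markers found of 1.40, against -0.26 in control fish 2. No other fish was above 0.28, and what this level contributes was not tested. With the muscle level as a covariate the SDHD difference on the supplemented diet was 0.66 (adjusted p = 0.99). The limma test of whether the diet effect differed between the populations gave SDHD an adjusted p of 0.56, and 0.0029 before adjustment. The other anchor, SDHC, was at 0.14 and -0.01, and SDHA at -0.02 and -0.06, in the same Pargana comparisons.

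cox7a1 had the widest diet difference in Pargana: 2.29 (SE 0.63, adjusted p = 0.44) for deficient and 1.86 (SE 0.63, adjusted p = 0.60) for supplemented against the same 2 control fish. In Transgenic Mosaic 1 it was 0.23 and -0.08. The test of whether this effect differed between the populations gave an adjusted p of 0.89 in limma, and 0.054 before adjustment. The fast muscle level also differed in Pargana, at -0.01, 0.60 and 0.24 on the deficient diet, -0.20 and -0.17 on the control diet and 1.42, 0.37 and 0.83 on the supplemented diet. With the muscle level as a covariate the cox7a1 difference from control was 1.77 on the deficient diet (adjusted p = 0.86) and 0.66 on the supplemented diet (adjusted p = 0.99). Without the 3 Pargana arrays of highest muscle level it was 2.49 (adjusted p = 0.15) and 0.29 (adjusted p = 1.00), the second resting on supplemented fish 2 alone.

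The COX5B row ENSDARG00000068738 went the other way in Pargana. It read 11.06, 10.79 and 11.48 on the deficient diet, 12.63 and 12.11 on the control diet, and 11.90, 12.15 and 11.44 on the supplemented diet. The deficient fish lay under both control fish, at -1.26 relative to them (95% interval -2.24 to -0.29, adjusted p = 0.58), and the supplemented fish overlapped them, at -0.54 (-1.51 to 0.44). Its differences from control were -0.44 and -0.62 in Transgenic Mosaic 1, where all groups overlapped. Averaged over both populations it was at -0.85 for deficient against control (adjusted p = 0.67). The COX5B row ENSDARG00000015978 was at 0.03 and 0.00 in Pargana.

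Pargana fish on the deficient diet also had the iron-sulfur subunit NDUFS7 at -0.60 (adjusted p = 0.45) and NDUFB10 at -0.49 (adjusted p = 0.57) relative to control. NDUFS7 read 11.99, 11.98 and 11.84 on the deficient diet, against 12.35 and 12.71 on the control diet. On the supplemented diet the differences from control were -0.36 and -0.25, and -0.06 and 0.05 with the muscle level as a covariate.

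In Transgenic Mosaic 1 the lowest p was that of NDUFS1 on the supplemented diet, at -0.66 relative to control (SE 0.16, adjusted p = 0.25). The 3 supplemented fish (12.02 to 12.19) lay under the 3 control fish (12.66 to 12.96). SDHC (0.38, adjusted p = 0.65), SDHAF3 (-0.36) and NDUFA1 (0.31) followed. On the deficient diet NDUFS8 (0.36), NDUFAF2 (0.36), UQCRC2 (-0.32) and NDUFA1 (0.30) had the lowest p values, all with an adjusted p of 0.999. Averaged over both populations, SDHD (0.75 for deficient and 0.57 for supplemented against control), NDUFS7 (-0.34 for deficient) and NDUFS1 (-0.42 for supplemented) led, with adjusted p values of 0.53 or more.

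None of the 73 genes passed the test for a diet effect that differed between the populations (limma), against 0.0383% of all genes, and 1, SDHD, had an unadjusted p under 0.05, against 5.63% of all genes.

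Fish of the same group varied little in these genes. The SD within groups had a median of 0.18, against 0.23 for all genes, and was between 0.06 for NDUFA12, a complex I accessory subunit, and 0.77 for cox7a1. The deviations of different structural subunits from their group means were weakly correlated over the 17 arrays, with a mean pairwise Pearson r of 0.18, against 0.02 for all genes. By complex it was 0.19 in complex I, -0.10 among the 3 genes of complex II, 0.25 in complex III, 0.18 in complex IV and 0.17 in complex V. These genes share arrays and a high signal, so the values are a description. NDUFS6, atp5mc1 and NDUFA10 followed the other subunits most closely, with a mean r of 0.38, 0.37 and 0.37.

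Genes that build, feed or maintain the chain were set beside it, and their shares called between the populations read against the 13.3% of all genes. Of 23 further assembly factors found, 5 (21.7%) differed between the populations: ATPAF2 (0.44) and atpaf1 (0.48), chaperones of the ATP synthase head, and COA1 (0.40) were higher in Transgenic Mosaic 1, and cox14 (-0.29) and COA7 (-0.39), of complex IV assembly, were lower. ATPAF2 was between 10.30 and 10.77 in Transgenic Mosaic 1 and between 9.91 and 10.20 in Pargana, without overlap. Of 17 genes of electron carriers and related enzymes 2 (11.8%) passed, COQ9 (0.24) and COQ8A (-0.31). That list holds cytochromes c and c1, ubiquinone synthesis and proteins that hand electrons on to ubiquinone. Of 16 genes of the citric acid cycle, pyruvate dehydrogenase and related malate dehydrogenases 3 (18.8%) passed: pdha1b (-1.0), DLST (-0.30) and mdh1b (0.98). Whether the mdh1b product works in mitochondria was not examined. pdha1b, a subunit of pyruvate dehydrogenase, was between 6.74 and 7.34 in Transgenic Mosaic 1 and between 7.63 and 8.50 in Pargana, also without overlap. Among all the related lists only ATPAF2 and pdha1b had no overlap, and 1.94% of all genes had none.

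Of 11 genes of mitochondrial biogenesis and DNA maintenance 3 (27.3%) passed, all higher in Transgenic Mosaic 1: the transcription factor tfb2m (1.15), the DNA polymerase POLG (0.67) and the single-strand binding protein SSBP1 (0.38). Of 12 mitochondrial carrier, uncoupling protein and porin genes 3 (25%) passed. These lists are small, and no test compared their shares with that of all genes. The phosphate carrier SLC25A3 was higher (1.29), and the pyruvate carrier subunit MPC1 (-0.28) and the ADP/ATP carrier SLC25A4 (-0.78), in mammals the heart and muscle form, were lower. SLC25A4 reached 11.57 in Pargana supplemented fish 1, the fish with the highest muscle level, and its difference on the supplemented diet was -2.08 (adjusted p = 0.012). Median differences of the 5 lists lay between -0.04 and 0.05, against -0.01 for all genes. Among the diet comparisons within a population only 2 of these genes passed, both in Transgenic Mosaic 1 on the supplemented diet against control: cox16, a complex IV assembly factor (0.94, adjusted p = 0.031), and mdh1b, a malate dehydrogenase (2.52, adjusted p = 0.016).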

How the data were processed

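Total RNA of single midbrains was labelled with Cy3 and hybridised to NimbleGen arrays, per the labels' protocols. For every Ensembl gene the table holds a deposited log2 value, summarised by RMA with the Zv9 build per the submitters' processing notes. They were used as deposited; 1 feature without a gene was left out, and 15648 genes remained, of which 13251 had a symbol. Slide and scan are not given in the sources used here, so no batch could be examined.

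A linear model with 6 group means was fitted to all 17 arrays in limma 3.58.1 (R 4.3.3). Variances were moderated by empirical Bayes, with 11 residual degrees of freedom and a prior worth 2.84. Two-sided p values were adjusted by the Benjamini-Hochberg method across the whole table in each comparison, and 0.05 was the threshold. Population differences are the mean of the 3 differences within diets, and the test for differing diet effects is a moderated F test with 2 numerator degrees of freedom. The same steps were tested on simulated data. For the population difference 59.7% of genes changed by 0.5 and 88.1% changed by 1 log2 unit were recovered. For Pargana deficient against control these shares were 7.46% and 49.3%. At each size 66 or 67 of 15648 genes were changed, with independent noise for each gene, and 14 and 3 unchanged genes were called. In the real population comparison 13.3% of genes were called, so the simulated shares need not hold there.

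Genes are named when past the threshold, among the 12 furthest differences in each direction between the populations with 1 sign on all 3 diets, among the 4 lowest p values of a diet comparison or the interaction, or as core subunits and complex IV isoforms; ndufab1b, atp5if1a, SDHAF3, NDUFS6, atp5mc1, NDUFA10 and NDUFA12, where outside this rule, were named after their values were seen. From the related lists the genes past the threshold are named. The members and lists were chosen with earlier results of these data known. Each value comes from a separate fish, and no 2 arrays were identical. Pargana deficient fish 3 carries another letter in its label code than the other Pargana fish. It was kept as Pargana by its source label, and without it the same 3 genes were called between the populations. Alternatives covered normalization, filters, the prior variance, array weights, each array left out, muscle markers and the model.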

Additional observations from a re-analysis of the deposited data

Results flagged for a closer look

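For each gene, the highest and the lowest array of each population were set against the other arrays of that population with Dixon's test. Of 146 such groups 8 held an array apart, where chance gives about 1 in 20.

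In Transgenic Mosaic 1, NDUFB11 was highest in supplemented fish 2 (9.02, next 8.70), UQCRC2 was lowest in deficient fish 1 (12.45, next 12.98), cox6b1 was lowest in control fish 3 (12.88, next 13.08) and ATP5F1B was lowest in control fish 2 (13.67, next 14.09). In Pargana, ndufa11 was lowest in deficient fish 2 (11.24, next 11.63) and NDUFAF2 was highest in the same fish (8.96, next 8.34). cox8a was lowest in control fish 2 (13.28, next 13.55), and ATP5F1A was lowest in supplemented fish 2 (13.78, next 14.09). Each flag concerns 1 array, and no array held more than 2 of them. Without Pargana deficient fish 2 the ndufa11 difference between the populations stayed past the threshold.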

How the results depend on the processing

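No paired analysis was possible because the labels give no replicate numbers that match fish across groups. The 3 genes called between the populations were the same under repeated quantile normalization, median centring, a filter on dim genes, 1 feature per symbol, a robust prior, array weights and an additive model. With a trended prior the count was 5, adding ATP5F1D and NDUFB10. With each array left out it was 2 to 4. With the muscle marker level as a covariate it was 0, and without the 3 Pargana arrays of highest muscle level 1 (cox7a1); over all genes these settings called 305 and 1204, against 2089. On the deficient diet the count of 1 became 0 with the muscle covariate and ranged from 0 to 1 with arrays left out. On the control diet it became 1 (SDHD) with the muscle covariate. On the supplemented diet the count of 2 became 1 with median centring, 0 with the muscle covariate, 0 without the 3 Pargana arrays and 1 with only the groups compared fitted (NDUFS1), and 0 to 2 with arrays left out. For Pargana supplemented against control it ranged from 0 to 1 (cox7a1, without Pargana supplemented fish 2), and for Transgenic Mosaic 1 supplemented against control from 0 to 1 (NDUFS1, without Transgenic Mosaic 1 deficient fish 2). The cause of these moves was not tested. All other diet counts stayed at 0.

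The muscle covariate also moved uncalled differences between the populations: ATP5PB was at 0.01 instead of 0.33, SDHAF3 at 0.01 instead of 0.22, SDHD at 0.57 instead of 0.18 and COX5B (ENSDARG00000068738) at -1.04 instead of -0.61. In Pargana supplemented against control it put SDHD at 0.66 instead of 1.28, cox7a1 at 0.66 instead of 1.86 and NDUFS7 at -0.06 instead of -0.36, and SDHD averaged over the populations at 0.25 instead of 0.57.

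Signs turned only in uncalled differences, from values of at most 0.25 in size. Between the populations, with the muscle covariate, NDUFB9 was at -0.07, atp5meb -0.04, NDUFAF2 0.04, ATP5F1B 0.05, NDUFS8 0.02, NDUFV1 -0.11, SDHA 0.11, uqcrc2a 0.09 and COX4I1 -0.10, and NDUFB10 in Pargana supplemented against control 0.05. Without the 3 Pargana arrays NDUFS8 was at 0.00 and uqcrc2a at 0.01. SDHC was at 0.00 with quantile normalization and with median centring, and at 0.01 with array weights and with the additive model, where COX7A2L was at 0.00. With arrays left out, ranges were -0.07 to 0.01 for NDUFS8, -0.03 to 0.16 for NDUFV1, -0.04 to 0.05 for SDHC, -0.12 to 0.06 for uqcrc2a, -0.03 to 0.03 for COX5B (ENSDARG00000015978), -0.04 to 0.04 for COX7A2L and -0.14 to 0.01 for cox8a. With 2 or 3 fish a group, changes under about 1 log2 unit within a population could often be missed.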
